A study of Mus musculus with 13 samples.

Results

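Expression of 10 genes that build triglyceride or bring fatty acids into the cell was described in liver RNA of 6 WT and 7 Nod2-/- mice. The genes were listed by their function: the acyltransferases Gpam, Agpat2, Dgat1, Dgat2 and Mogat1, the lipins Lpin1 and Lpin2, the fatty acid translocase Cd36, the lipase Lpl, and the nuclear receptor Pparg. All 10 were found among the 53465 genes of the table, and all 10 had enough reads to be tested. The WT mice (W1 to W6) and the Nod2-/- mice (N1 to N7) were male BALB/c animals given the carcinogen DMBA once as pups and raised on a high fat diet (HFD), which began with the nursing mothers. The labels give 30 weeks for both the diet and the age, and name cancer as the disease state in both genotypes, so neither group here is free of carcinogen or of HFD. The shared label does not mean equal tumor load. Among males treated this way, the study reports liver tumors in a larger share of Nod2-/- than WT mice. It also reports greater weight gain in Nod2-/- males, while those given both DMBA and HFD began to lose weight before the experiment ended. Nod2 is an intracellular receptor for bacterial cell wall fragments, and the Nod2-/- mice lack it in every cell. Per the study's methods tumors were kept apart from liver where that could be done, and whether the sequenced pieces held tumor is not given in the sources used here. The question the comparison addresses is which liver genes differ between genotypes under the same treatment.

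Hepatocytes make triglyceride by adding acyl chains one after another to glycerol phosphate, removing the phosphate, and adding the last chain. Gpam adds the first chain, Agpat2 the next, the lipins remove the phosphate to give diacylglycerol, and Dgat1 or Dgat2 completes triglyceride. Lpl frees fatty acids from lipoproteins in the capillary, Cd36 helps them across the cell membrane, and Pparg, which is low in lean liver and is known to be raised in fatty liver, switches on several genes of uptake and storage.

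Libraries of WT mice held 14886273 to 20579984 counts and those of Nod2-/- mice 13824780 to 19391431, and every 2 mice of a group differed by more than sampling noise. Nod2 itself had 0 to 4 counts in WT and 1 to 6 in Nod2-/- livers, so its level cannot check the genotype labels. Hepatocyte markers were present in every liver. W3 stood apart among WT mice by markers of liver tumor and progenitor cells, and N7 among Nod2-/- mice by markers of neutrophils. The neutrophil markers had a sum between 69.1 and 150 normalized counts in WT livers and between 95.2 and 15271 in Nod2-/- livers, and 6 of 7 Nod2-/- mice lay above all WT mice.

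In Nod2-/- livers 1 of the 10 genes, Lpin2, fell at a 5% false discovery rate (FDR) and 0 rose, in the quasi-likelihood test of edgeR with p-values adjusted by Benjamini-Hochberg over all 13545 genes tested. Over all genes this test called 1.16%, made up of 0.650% of all genes higher and 0.509% lower. An unadjusted p under 0.05 was reached by 4 of the 10, against 23.1% of all genes. Lower means in Nod2-/- mice were those of Lpin1, Lpin2 and Dgat2, 3 genes against 10.2% of all genes, and Lpl had the higher mean, 1 gene against 12.9%. The median log2 fold change was 0.05 over the 10 genes and 0.02 over all genes. With DESeq2, which called 7.26% of the genes it tested, the same 4 genes passed 5% FDR, and limma's voomWithQualityWeights, which called 6.22%, passed Lpin2 and Lpl.

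**Figure D1:**
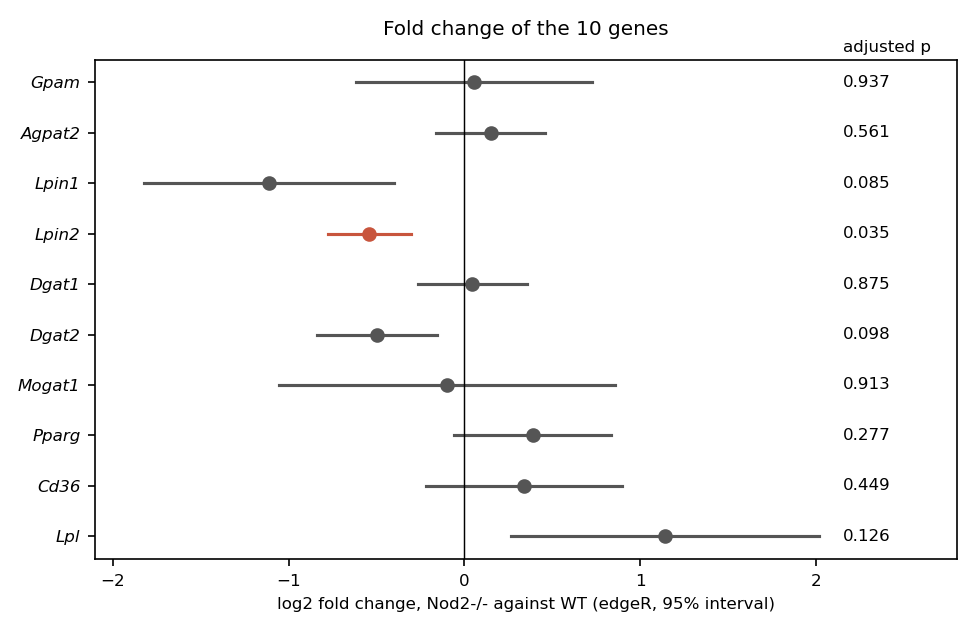
Log2 fold change of each gene in Nod2-/- against WT livers with its 95% interval, from edgeR, with the Benjamini-Hochberg adjusted p at the right. Lpin2 at -0.54 (red) is past 5% FDR, and the intervals of Lpin1, Dgat2 and Lpl also lie on one side of 0.

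Per length, the genes spanned a wide range of levels in WT livers. In RPKM, reads scaled by exon length and library size, Dgat2 was at 293 ± 56.9 (SD, n = 6), Agpat2 at 102 ± 16.8 and Lpin2 at 57.2 ± 6.46. Lpin1 at 21.5 ± 8.43 and Gpam at 19.7 ± 7.36 lay within each other's spread, as did Cd36 at 12.5 ± 3.46 and Dgat1 at 11.9 ± 2.78. At the low end, Lpl at 2.92 ± 2.01, Pparg at 2.81 ± 0.849 and Mogat1 at 1.88 ± 0.724 RPKM overlapped as well. The same 3 genes led in Nod2-/- livers, with Dgat2 at 208 ± 42.9 RPKM (n = 7), Agpat2 at 114 ± 23.4 and Lpin2 at 39.3 ± 5.30. Lpin1, at 9.97 ± 4.45 RPKM, there lay below Gpam (20.5 ± 10.6), Cd36 (15.8 ± 7.56) and Dgat1 (12.3 ± 1.71), although its spread overlapped theirs. All values below are normalized counts, which compare mice within a gene and not genes with each other.

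**Figure D2:**
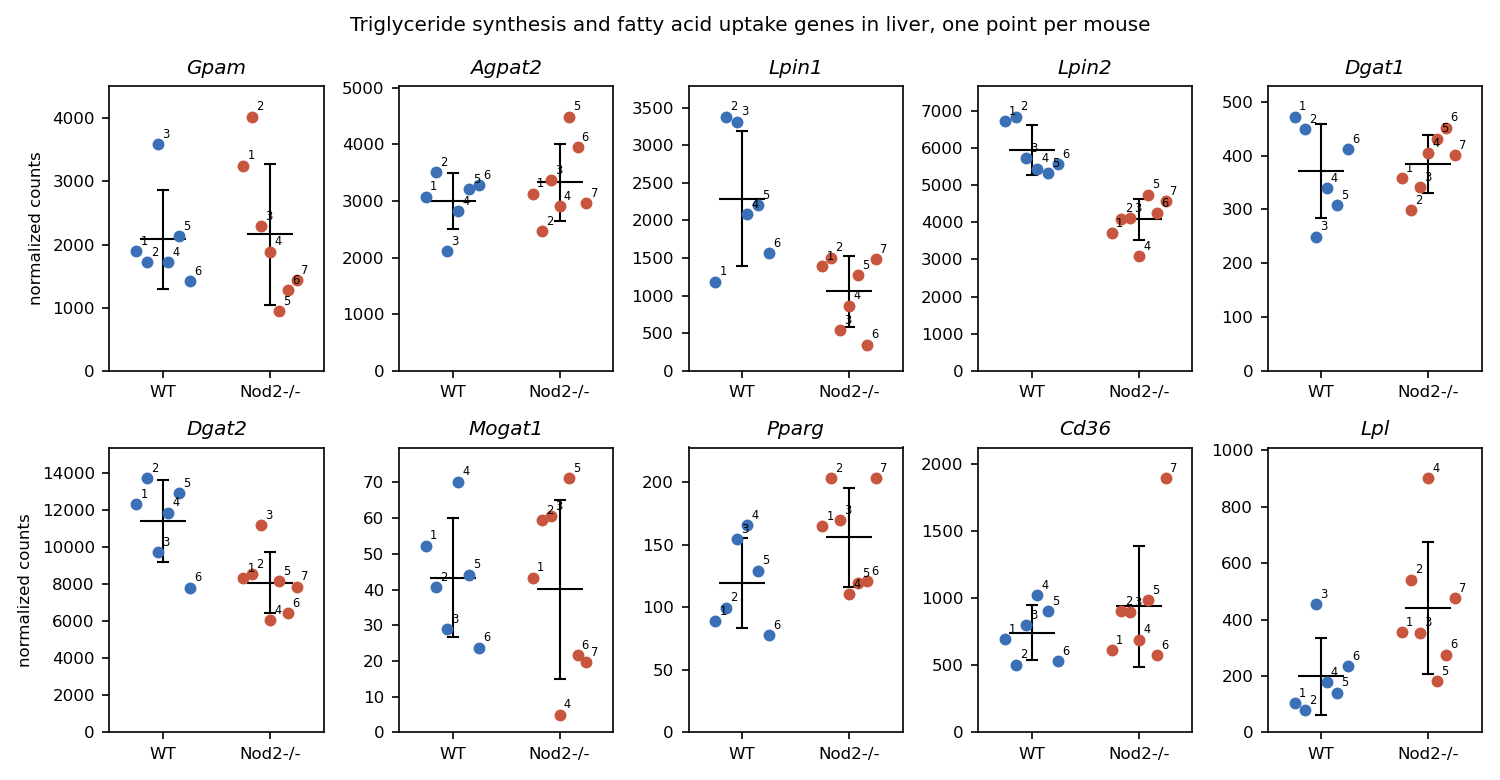
Normalized counts of the 10 genes, with 1 point per mouse labelled by its number, in WT (blue, n = 6) and Nod2-/- (red, n = 7) livers. Bars show the mean ± SD, and Lpin2 is the gene whose Nod2-/- points all lie below the WT points, with 4742 as the highest Nod2-/- value and 5325 as the lowest WT value.

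Lpin2 (ENSMUSG00000024052.17, chr17:71182560-71249817 on GRCm38, plus strand) was the more abundant lipin of these livers. It was 5325 in the lowest WT mouse, 5642 at the median and 6845 in the highest. In Nod2-/- mice the lowest, median and highest values were 3091, 4105 and 4742. Every Nod2-/- mouse lay below every WT mouse, a separation in this direction that 0.687% of tested genes showed. The mean was 5936 ± 670.4 in WT (SD, n = 6) and 4081 ± 550.3 in Nod2-/- mice (n = 7), 31.3% lower. The log2 fold change was -0.54 ± 0.11 (SE, 95% interval -0.78 to -0.31), and the adjusted p in edgeR was 0.0350. An exact permutation test over the 1716 splits of the 13 mice, two-sided, gave p = 0.000583, the smallest that these splits allow. In bulk liver, fewer cells of a type and less RNA per cell cannot be told apart.

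With 1 mouse left out, the fold change of Lpin2 stayed between -0.58 and -0.48, but the gene passed 5% FDR in 7 of 13 fits. The edgeR adjusted p became 0.0895 without W1, 0.0990 without W2, 0.0725 without W4 and 0.0575 without W5. It became 0.0527 without N6 and 0.0536 without N7. Hepatocyte markers had differences in both directions beside it. At an unadjusted p under 0.05, 1 of 7 had a higher mean (12.9% of all genes) and 2 a lower mean (10.2% of all genes). The lower ones were Cyp2e1, a cytochrome P450 of the central lobule, at -0.94 (edgeR adjusted p = 0.0777), and Cps1, the entry enzyme of the urea cycle, at -0.38 (adjusted p = 0.150). Their part in the Lpin2 difference was not tested.

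Lpin1 makes diacylglycerol like Lpin2 and also acts in the nucleus as a partner of Ppargc1a and Ppara in fasting. The gene (ENSMUSG00000020593.15) lies at chr12:16535669-16610966 on the minus strand. Its lowest, median and highest values were 1188, 2145 and 3380 in WT mice and 349, 1276 and 1505 in Nod2-/- mice. All 7 Nod2-/- mice lay below the WT median and 3 of them (N3, N4 and N6) below every WT mouse, while W1 sat among the Nod2-/- values. Its log2 fold change was -1.11 ± 0.33 (95% interval -1.82 to -0.40), a ratio of means of 0.463, with an edgeR adjusted p of 0.0849. The exact permutation test, two-sided, gave p = 0.00758, and the DESeq2 adjusted p was 0.0173. With 1 mouse left out the value ran from -1.24 to -0.96, and the edgeR adjusted p from 0.0762 to 0.200. Without W1, the WT mouse that overlapped, the genotypes did not overlap. W1 is named here because it overlapped, so this is no test of the difference. Without W1, 0.834% of tested genes did not overlap in the same direction. That share leaves out W1 for every gene and not each gene's own overlapping mouse, so it is no base rate for Lpin1. Lpin1 and Lpl both stand in the study's own list of metabolic genes, which was chosen on these mice and is no independent evidence of their direction.

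The windows of 250 bases before the transcript start of Lpin1 and Lpin2 are shown because their genes serve one enzymatic step and had lower means in Nod2-/- livers. The third lipin, Lpin3, was 89.3 ± 27.5 in WT and 96.4 ± 28.0 in Nod2-/- mice, at 0.11 (95% interval -0.36 to 0.58, edgeR adjusted p = 0.802). The windows come from RefSeq on GRCm38.p6, and capitals mark a match to 1 of 6 motifs searched on both strands. No 2 matches overlapped. The Lpin1 window (chr12:16610967-16611216, minus strand) held the nuclear receptor half-site AGGTCA at 74 to 69 bases before the start, a match found in 14.0% of 32851 such windows. The first of 3 Lpin2 windows (chr17:71183282-71183531, plus strand), which lies inside the annotated span of the gene, held the E-box CACGTG at 9 to 4 bases before the start, found in 6.02% of windows. Neither of these held CCAAT (33.8% of windows), the sterol regulatory element TCACNCCAC (1.05%), the cyclic AMP response element TGACGTCA (1.55%) or TATAAA (12.4%). The third Lpin2 window, not printed, held CCAAT 3 times. A match describes the letters only.
Lpin1: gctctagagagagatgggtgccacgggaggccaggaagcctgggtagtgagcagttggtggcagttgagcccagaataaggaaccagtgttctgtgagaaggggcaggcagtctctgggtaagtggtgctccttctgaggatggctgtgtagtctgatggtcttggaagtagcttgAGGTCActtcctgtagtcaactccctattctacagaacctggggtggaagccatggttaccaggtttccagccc
Lpin2: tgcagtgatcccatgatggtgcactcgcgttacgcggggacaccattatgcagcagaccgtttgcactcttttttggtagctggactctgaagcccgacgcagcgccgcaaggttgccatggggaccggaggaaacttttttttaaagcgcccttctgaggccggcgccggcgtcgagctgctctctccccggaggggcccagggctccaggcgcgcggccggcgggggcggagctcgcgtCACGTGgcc

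Of the acyltransferases, Dgat2, the main enzyme for triglyceride made from newly formed fatty acids, had the clearest difference in mean. The gene (ENSMUSG00000030747.5) lies at chr7:99153658-99182719 on the minus strand. WT mice ran from 7806 through a median of 12076 to 13709.8, and Nod2-/- mice from 6055 through 8171 to 11158. All 7 Nod2-/- mice were below the WT median and 2 (N4 and N6) below every WT mouse, with W6 low among WT mice and N3 high among Nod2-/- mice. This gave a log2 fold change of -0.50 ± 0.16 (95% interval -0.84 to -0.16), with an edgeR adjusted p of 0.0978 and a DESeq2 adjusted p of 0.0279. The exact permutation test, two-sided, gave p = 0.0157. Leaving out 1 mouse at a time kept the value between -0.59 and -0.44, and in none of the 13 edgeR fits did Dgat2 pass 5% FDR (lowest adjusted p = 0.0539).

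Dgat1 (chr15:76502015-76511953, minus strand), which esterifies fatty acids taken up or recycled, was 249, 376 and 473 in the lowest, median and highest WT mouse and 298, 401 and 452 in Nod2-/- mice. The Nod2-/- values lay inside the WT range, and the log2 fold change was 0.05 (95% interval -0.27 to 0.36, edgeR adjusted p = 0.875). The 2 Dgat genes share a reaction but not a sequence family, and only for Dgat2 did the interval exclude 0, while the difference between their changes was not tested.

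Gpam sits in the outer mitochondrial membrane and commits fatty acids to glycerolipid (chr19:55067268-55127238, minus strand). Its values ran from 1417 through 1812 to 3593 in WT and from 941 through 1889 to 4027 in Nod2-/- mice. W3, N1 and N2 were high, the other mice lay between 941 and 2292, and the genotypes overlapped. The log2 fold change was 0.05 with an interval of -0.62 to 0.72 (edgeR adjusted p = 0.937), so a change of 1.5-fold in either direction lies inside it. Without W3 the value was 0.26 and without N2 it was -0.18.

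Agpat2 (chr2:26593057-26604417, minus strand), the acyltransferase whose loss causes lipodystrophy, was 2108, 3144 and 3505 in WT and 2469, 3129 and 4489 in Nod2-/- mice. W3 was the lowest mouse and N5 the highest, and the medians nearly coincided. Agpat2 had a log2 fold change of 0.15 (95% interval -0.16 to 0.46, edgeR adjusted p = 0.561). The exons of Agpat2 share 64 bases with Egfl7 on the opposite strand, and whether the counting used strand is not given in the sources used here.

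Mogat1, a monoacylglycerol acyltransferase that Pparg is known to raise in fatty liver, had 5 to 81 reads per mouse (chr1:78510991-78538173, plus strand). Its values were 23.7, 42.4 and 70.2 in WT mice and 4.99, 43.4 and 71.2 in Nod2-/- mice, where N4 was lowest. N4, N6 and N7 lay below every WT mouse and N5 above, so Nod2-/- mice spread to both sides of the WT range. For Mogat1 the log2 fold change was -0.10 with an interval of -1.05 to 0.85 (edgeR adjusted p = 0.913), so a change of 1.5-fold in either direction lies inside it. Mogat1 exons overlap 200 bases of BC035947 on the opposite strand.

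Pparg itself (chr6:115360951-115490399, plus strand) was 77.8, 115 and 166 in the lowest, median and highest WT mouse and 111, 165 and 203 in Nod2-/- mice. Of the 7 Nod2-/- mice 6 lay above the WT median and 3 (N2, N3 and N7) above every WT mouse. Pparg had a log2 fold change of 0.39 ± 0.21 (95% interval -0.06 to 0.83), with an edgeR adjusted p of 0.277. The exact permutation test, two-sided, gave p = 0.110.

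Cd36 (chr5:17781690-17888801, minus strand) was 504, 747 and 1024 in WT and 577, 898 and 1895 in Nod2-/- mice. The high value was N7 alone, and the other 6 Nod2-/- mice, at 577 to 987, lay inside the WT range. Cd36 had a log2 fold change of 0.34 ± 0.26 (95% interval -0.22 to 0.90, edgeR adjusted p = 0.449), and without N7 it was 0.07 (adjusted p = 0.873). N7 also had the highest macrophage marker sum, 9171 against 2387 to 4802 in WT and 2753 to 4689 in the other Nod2-/- mice. Of the 9 macrophage markers 1 had a higher mean in Nod2-/- mice at an unadjusted p under 0.05, against 12.9% of all genes. It was Cd5l, a secreted Kupffer cell protein, at 0.79 (edgeR adjusted p = 0.148). Gpnmb, a marker of lipid-laden macrophages, had the next lowest p and a lower mean, 80.1 in WT and 32.9 in Nod2-/- mice, at -1.29 (adjusted p = 0.259). In all, 7 of the 9 had a fold change above 0 and 2 below, and none was at 0 in every mouse. The part of these cells in the Cd36 level was not tested.

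Across the 13 mice, Cd36 tended to be high where Pparg was high, by Pearson's r but not, after adjustment, by Spearman's rho. Pearson's r of log2 normalized counts was 0.684 (permutation p = 0.00788, adjusted over 4 relations 0.0315), and Spearman's rho was 0.670 (permutation p = 0.0145, adjusted 0.0580). Without the mice farthest from the Pparg median, W6 and N2, r was 0.661. Within genotypes r was 0.831 in the 6 WT mice (exact permutation p = 0.0597) and 0.562 in the 7 Nod2-/- mice (exact permutation p = 0.190). The other 3 relations did not pass: Pparg with Mogat1 had r = 0.229 and rho = 0.242 (permutation p = 0.471 and 0.429, adjusted 0.471 and 0.540), and without W6 and N2 r was 0.0856. Pparg with Cidec, a lipid droplet protein, had r = 0.240 and rho = 0.187 (permutation p = 0.425 and 0.540, adjusted 0.471 and 0.540), r being 0.148 without the same mice. Lpin1 with its partner Ppargc1a had r = -0.374 and rho = -0.280 (permutation p = 0.207 and 0.354, adjusted 0.415 and 0.540), and r = -0.244 without N3 and N6.

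The window before the RefSeq start of Cd36 (chr5:17835897-17836146, minus strand, GRCm38.p6) lies inside the annotated span of the gene, before an internal start. It is shown because Cd36 is a known target of Pparg, whose dimer with Rxr binds paired AGGTCA half-sites. Capitals mark a single half-site, read as TGACCT on this strand, at 228 to 223 bases before the start and the NF-Y box CCAAT at 195 to 191. Over all windows, 14.0% held the half-site and 33.8% CCAAT. Windows of Gpam, Lpin1 and Pparg also held the half-site, while the Mogat1 window held none of the motifs searched. Binding was not tested.
Cd36: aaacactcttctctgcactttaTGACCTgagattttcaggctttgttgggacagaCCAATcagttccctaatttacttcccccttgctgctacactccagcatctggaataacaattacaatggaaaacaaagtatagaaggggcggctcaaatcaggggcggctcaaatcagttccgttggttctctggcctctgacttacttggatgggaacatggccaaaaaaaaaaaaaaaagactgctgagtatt

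Lpl is made in adipose tissue, muscle and macrophages, and its level is low in adult hepatocytes. The gene (ENSMUSG00000015568.16) lies at chr8:68880491-68907448 on the plus strand. The lowest, median and highest values were 78.9, 160.1 and 455 in WT mice and 183, 355 and 902 in Nod2-/- mice. All 7 Nod2-/- mice lay above the WT median and 3 (N2, N4 and N7) above every WT mouse, but W3 at 455 lay among the highest Nod2-/- values. The log2 fold change was 1.14 ± 0.41 (95% interval 0.27 to 2.01), a ratio of means of 2.22, with an edgeR adjusted p of 0.126. The exact permutation test, two-sided, gave p = 0.0373, and the DESeq2 adjusted p was 0.0485. The exact p was 0.0568 to 0.0833 without W1, W2, W4, W5, W6, N2, N4 or N7. Among edgeR fits with 1 mouse left out, Lpl passed 5% FDR only without W3, at a log2 fold change of 1.56 (adjusted p = 0.0294). That fit called 8.49% of genes, against 1.16% with all mice. Lpl also passed with voomWithQualityWeights at 1.34 (adjusted p = 0.0361), a fit that holds all mice but gives each, W3 included, its own weight. Without N4 the edgeR log2 fold change was 0.86 (adjusted p = 0.244).

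Lpl was low and high in much the same mice as the markers of liver tumor and progenitor cells. This pattern was seen in the values afterwards, and no correlation was computed for it. These 8 markers summed to 683 in W1 and 655 in W2, the mice with the lowest Lpl, to 8588 in W3 and to 12822 in N4, the mouse with the highest Lpl. N1, with a sum of 10696, had a middling Lpl of 355. Much of these sums came from Spp1 and H19: Spp1 was 550 in W1, and in N4 Spp1 was 6425 and H19 4210. The sums spanned 655 to 8588 in WT and 2861 to 12822 in Nod2-/- mice, 3 of which lay above all WT mice. Of the 7 markers tested, 3 had higher means in Nod2-/- mice at an unadjusted p under 0.05, against 12.9% of all genes. Sox9, a transcription factor of bile duct and progenitor cells, rose at 5% FDR, as 0.650% of all genes did. Sox9 was 24.1 to 77.8 in WT and 77.0 to 164 in Nod2-/- mice, a log2 fold change of 1.29 ± 0.25 (edgeR adjusted p = 0.0324). The Sox9 call was lost without W1, W2, W4, W5, N4, N6 or N7, with adjusted p values of 0.0503 to 0.0827. It was also lost in edgeR with the replicate number as a block (adjusted p = 0.0942). None of the 8 was at 0 in every mouse, although Igf2 had at most 3 counts in each. Their part in the Lpl difference was not tested.

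Macrophages make Lpl as well, and their markers summed to 4802 in W3 and 4765 in W4, whose Lpl values were 455 and 179. N7 had the highest macrophage sum, 9171, and an Lpl of 476. N4 had the highest Lpl, 902, and a macrophage sum of 3726. The part of macrophages in the Lpl difference was not tested. Markers of muscle and fat were low. The skeletal muscle markers summed to 7.23 to 14.3 normalized counts in WT and 6.98 to 14.4 in Nod2-/- mice, with Acta1 and Myh4 at 0 in every mouse. Of 7 adipocyte markers 5, among them Adipoq, Lep and Plin1, had too few reads to be tested. The adipocyte sum, which came mostly from the other 2, ran from 246 to 366 in WT and from 254 to 399 in Nod2-/- mice. Those 2 were Lipe, the hormone-sensitive lipase, at -0.19 (edgeR adjusted p = 0.380), and Adrb3, a catecholamine receptor, at 0.83 (adjusted p = 0.0803). Markers of endothelium, the site where Lpl works, summed to 2414 to 3332 in WT and 2750 to 3610 in Nod2-/- mice. Of 6, 3 had higher means at an unadjusted p under 0.05, against 12.9% of all genes. Among them were Vwf at 1.32 (edgeR adjusted p = 0.0512) and Pecam1 at 0.46 (adjusted p = 0.0662). None of the 6 was at 0 in every mouse.

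**Figure D3:**
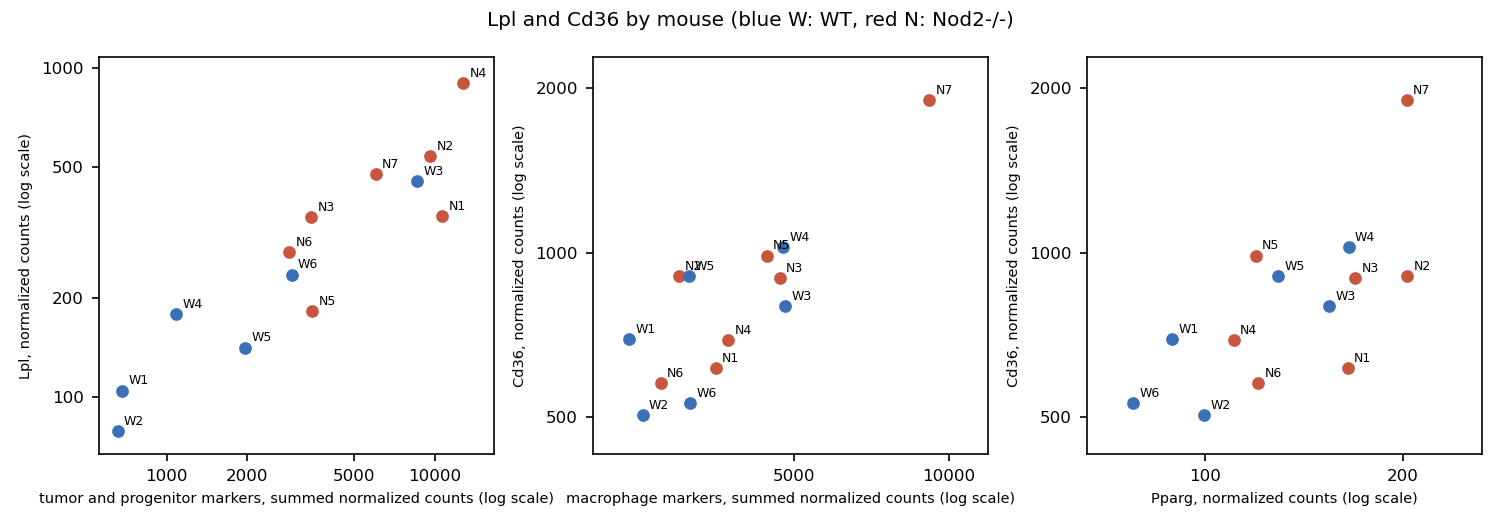
Each mouse (blue W, WT; red N, Nod2-/-) by Lpl against summed tumor and progenitor markers, Cd36 against summed macrophage markers, and Cd36 against Pparg, all in normalized counts on log axes. W3 sits with the Nod2-/- mice in the left panel (Lpl 455, markers 8588), and N7 stands alone in the middle panel (Cd36 1895, markers 9171).

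**Figure D4:**
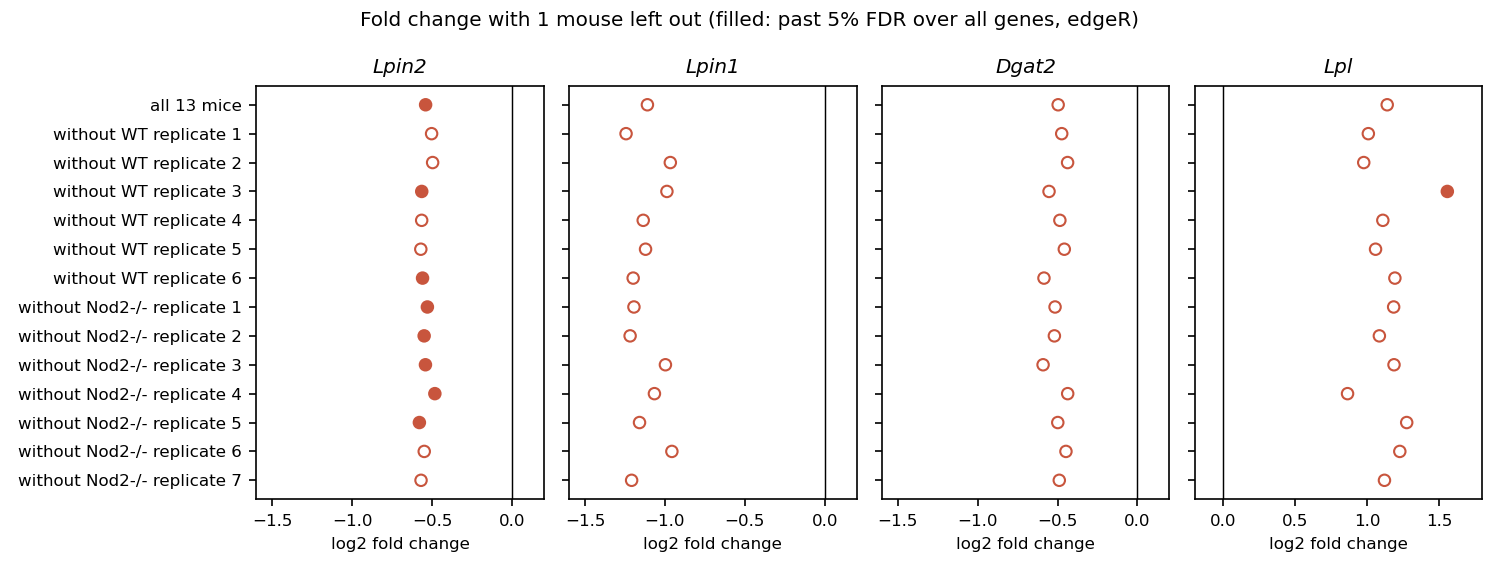
Log2 fold change of Lpin2, Lpin1, Dgat2 and Lpl in edgeR with all 13 mice and with 1 mouse left out. Filled points are past 5% FDR over all genes: Lpin2 with all mice and in 7 of 13 fits, Lpl in the fit without W3 (1.56), and Lpin1 and Dgat2 in none.

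The rest of the pathway had differences in both directions. For the counts in this and the following lists, the shares over all genes were 1.16% past 5% FDR in edgeR and 7.26% in DESeq2. At an unadjusted p under 0.05 in edgeR they were 12.9% higher and 10.2% lower. The edgeR fit without W3, given for several genes below, called 8.49% of genes at 5% FDR. No list was tested as a set. Of 19 other genes of triglyceride synthesis 18 were tested, 0 passed 5% FDR in edgeR, and at an unadjusted p under 0.05 the means of 3 were higher and of 3 lower, with a median log2 fold change of 0.06. DESeq2 called 5 of them. Acsl1, the main hepatic acyl-CoA synthetase that activates fatty acids, ran from 19577 to 46110.3 in WT and from 7352 to 24008 in Nod2-/- mice, with 5 of 7 Nod2-/- mice below every WT mouse. Its log2 fold change was -1.18 ± 0.27 (edgeR adjusted p = 0.0522), and it passed without W3 (-1.31, adjusted p = 0.0179), N1 (0.0494), N3 (0.0472) or N5 (0.0364). The other fits with 1 mouse left out did not pass Acsl1, with an edgeR adjusted p of up to 0.136. Acsl3, the synthetase of the lipid droplet, ran the other way, from 92.1 to 300.5 in WT and from 291 to 787 in Nod2-/- mice. Its log2 fold change was 1.11 ± 0.29 (edgeR adjusted p = 0.0656, and with 1 mouse left out from 0.0296, without W3, to 0.156).

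Of 24 other genes of fatty acid uptake and lipoprotein lipolysis all were tested and 0 passed 5% FDR in edgeR, while DESeq2 called 5. At an unadjusted p under 0.05, 6 had higher and 6 lower means, and the median was -0.11. Angptl8, a secreted protein that feeding raises in liver and fat, was 226 to 822 in WT and 559 to 2057 in Nod2-/- mice. Its log2 fold change was 1.25 ± 0.35 (edgeR adjusted p = 0.0744, and with 1 mouse left out from 0.0253, without W3, to 0.165). Fabp4, the fatty acid binding protein of adipocytes and macrophages, was 98.7 to 319 in WT and 204 to 833 in Nod2-/- mice, at 1.05 ± 0.31 (edgeR adjusted p = 0.0837). Fabp4 also counts among the known Pparg targets and stands in the study's list of metabolic genes named above.

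Of 10 such targets 9 were tested, 0 passed 5% FDR in edgeR, DESeq2 called 2, and at an unadjusted p under 0.05 the means of 2 were higher and of 2 lower, with a median of -0.11. Pltp, the phospholipid transfer protein, was 128 to 223 in WT and 165 to 437 in Nod2-/- mice, at 0.64 ± 0.21 (edgeR adjusted p = 0.0986). With 1 mouse left out the adjusted p of Pltp ran from 0.0459, without W3, to 0.216. The targets with lower means, named after their values were seen, were Acot1, an acyl-CoA thioesterase, and Acaa1b, a peroxisomal thiolase. Acot1 was 597 ± 283 in WT and 208 ± 202 in Nod2-/- mice, at -1.52 ± 0.55 (edgeR adjusted p = 0.127, 0.0447 without W3 and 0.0494 without N5). In the other fits with 1 mouse left out Acot1 did not pass, with an adjusted p of up to 0.259. Acaa1b was at -0.95 ± 0.40 (adjusted p = 0.177). Cidec was at 0.62 ± 0.45 (edgeR adjusted p = 0.417). Of 15 regulators and receptor partners 0 passed in edgeR and 1 in DESeq2, and at an unadjusted p under 0.05 the mean of 1 was higher and of 3 lower, with a median of -0.15. Ppara, the receptor that drives fatty acid oxidation, was 1462 to 2669 in WT and 998 to 2526 in Nod2-/- mice, at -0.57 ± 0.22 (edgeR adjusted p = 0.150). Nr1i2, the xenobiotic receptor PXR, was 1427 to 2719 in WT and 1020.1 to 1883 in Nod2-/- mice, at -0.61 ± 0.17 (edgeR adjusted p = 0.0712, 0.0227 without W3 and 0.0485 without N3). Leaving out each of the other mice, the adjusted p of Nr1i2 stayed above 0.05 and reached 0.167. Ppargc1a was at 0.39 ± 0.22 (adjusted p = 0.308).

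**Figure D5:**
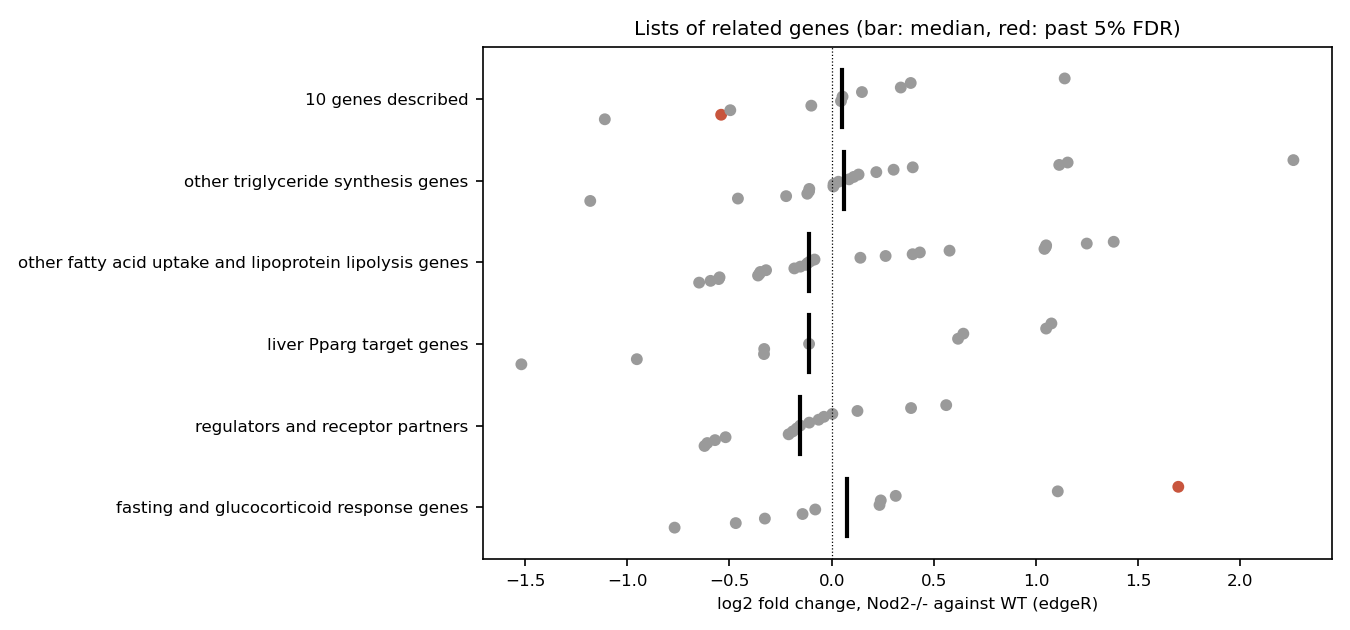
Log2 fold change in Nod2-/- against WT livers of each tested gene in the 10 genes described and in 5 lists of related genes, from edgeR, with a bar at each list's median. Medians lie between -0.15 and 0.08, and the red points past 5% FDR are Lpin2 (-0.54) and, in the fasting list, Fgf21 (1.70).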

How the data were processed

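Liver RNA was extracted with TRIZOL and RNeasy columns, and poly(A) libraries were made with a stranded kit, 1 per mouse. Trimmomatic 0.33 was used by the authors for trimming and TopHat2 2.1.1 for mapping to GRCm38, and the authors deposited whole-number counts per gene and mouse without normalization. The counting program, and its use of strand, are not given in the sources used here. One row without a gene identifier, holding 0 counts, was left out. Columns were mapped to mice by the titles.

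Counts were tested with edgeR 4.0.16 (R 4.3.3): TMM normalization, filterByExpr, the quasi-likelihood test of genotype with no covariate, and Benjamini-Hochberg adjustment over 13545 genes. SE is the fold change divided by the square root of the F statistic. Normalized counts were set to one library size, the mean of the effective sizes, and RPKM uses merged exons of protein-coding GENCODE M21 transcripts. Exact permutation tests compared mean normalized counts, and correlations used a pseudocount of 1 and 100000 resamples, or all pairings within a genotype. Replicates are separate mice. Alternatives were DESeq2 1.42.0, limma 3.58.1 (voomWithQualityWeights), RLE size factors, other filters, a robust fit, a replicate block and leaving out each mouse. A fit without both W3 and N7 was added after seeing the data. The code was tested on simulated data. From each list of related genes the text names those past 5% FDR or not overlapping between genotypes, and otherwise the 2 with the lowest unadjusted p, with the genes of the 4 correlated pairs, while marker lists are given mainly by their sums. Lpin3, Acot1 and Acaa1b were added after their values were seen. The 10 genes and the lists were chosen with earlier results of these data known. Promoter windows were found for 7 of the 10 genes (12 windows).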

Additional observations from a re-analysis of the deposited data

Results flagged for a closer look

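Of 34 sets of values (each of the 10 genes and 7 marker sums in each genotype), 6 held 1 mouse far from the rest by Dixon's test at 5%. The test was run on normalized counts without logs, while its 5% rate assumes normally distributed values. The count of 6 is therefore not set against chance. Among the 10 genes these were Gpam in W3, at 3593 normalized counts against 1417 to 2130.1 in the other WT mice, and Cd36 in N7, at 1895 against 577 to 987 in the other Nod2-/- mice. In W3 the sum of tumor and progenitor markers was 8588, against 655 to 2926 in the other WT mice. In N7 the sum of macrophage markers was 9171, against 2753 to 4689, and that of neutrophil markers was 15271, against 95.2 to 626. In N4 the sum of hepatocyte markers was 2768030, against 1372670 to 1867820 in the other Nod2-/- mice. Which of these values go with the Gpam and Cd36 levels was not tested.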

How the results depend on the processing

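Over all genes, the 88 higher and 69 lower calls became 605 and 549 with DESeq2, 519 and 324 with voomWithQualityWeights, and 408 and 159 without both W3 and N7. Leaving out 1 mouse gave 20 to 697 higher and 20 to 459 lower calls, most of them without W3 (697 and 459). Of the 10 genes, DESeq2 called 1 higher (Lpl) and 3 lower (Lpin1, Lpin2 and Dgat2), while voomWithQualityWeights and the fit without W3 and N7 each called 1 higher (Lpl) and 1 lower (Lpin2). Leaving out 1 mouse gave 0 to 1 higher and 0 to 1 lower. Genes whose genotypes did not overlap numbered 1 to 2, and 2 without W1. With the replicate number as a block, edgeR called 17 higher and 18 lower genes and 0 of the 10 (Lpin2 at -0.57, adjusted p = 0.114). Same-numbered mice did not deviate together (correlations of -0.302 to 0.304, 0 mice closest to their own number). No pairing by number was seen, although these correlations cannot exclude one.

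Among fold changes, those that turned sign included Dgat1, which was -0.0099 with voomWithQualityWeights, -0.057 without both W3 and N7, and -0.060 to 0.12 with 1 mouse left out. Gpam ran from -0.18 to 0.26 with 1 mouse left out and was 0.36 without both W3 and N7. Likewise with 1 mouse left out Mogat1 ran from -0.30 to 0.10, and Mylpf, a muscle marker at -0.01, from -0.12 to 0.075, and Lpin3 from -0.026 to 0.27. Their differences of mean normalized counts in the permutation tests ran from -232 to 381 for Gpam, -12.5 to 32.1 for Dgat1 and -8.37 to 2.67 for Mogat1. The permutation p of Lpl rose above 0.05 in 8 of 13 fits, to at most 0.0833. The correlation of Pparg with Cidec was -0.299 within Nod2-/- mice, and that of Lpin1 with Ppargc1a was 0.199 within WT mice. RLE size factors, other filters and the robust fit changed no call among the 10 genes. The cause of these changes was not tested. Of the 10 genes Mogat1 had the fewest reads, 5 to 81 per mouse.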

Other observations

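Of 10 genes that fasting or glucocorticoids are known to raise in liver, all were tested, and 1, Fgf21, rose at 5% FDR. Fgf21, a hormone that the liver releases in fasting and under metabolic stress, was 53.3 to 113 normalized counts in WT and 109 to 594 in Nod2-/- mice, and 6 of 7 Nod2-/- mice lay above every WT mouse. Its log2 fold change was 1.70 ± 0.32 with an edgeR adjusted p of 0.0261. The call was lost without W1 (0.0678), W2 (0.0727) or W4 (0.0728), and with the replicate number as a block (0.124). The fold change of Fgf21 with 1 mouse left out stayed between 1.40 and 1.84. The median of the list was 0.08, and 5 of its genes had a fold change above 0 and 5 below.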
